A study of Caenorhabditis elegans with 2 samples.

Results

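Of the 30000 regions in the relaxed list that the authors made from the pooled data of a chromatin immunoprecipitation experiment in Caenorhabditis elegans, 571 (1.90%) held a GA repeat near their summit. A GA repeat was a run of at least 7 bases alternating G and A that started and ended with G, on either strand, within 50 bp of the summit, the point that the list marks in each region. Regions whose 101-base window around the summit also held CACGTG, the palindromic E-box, were left out, which removed 33 of 604. The region's signal did not enter this choice. The repeats were mostly short. A run with at least 7 bases in the window was measured over its whole length, also past the window. The longest run was exactly 7 bases in 395 of the 571 regions, 9 to 11 in 113, 13 to 19 in 53 and 21 or more in 10, and the longest in any region was 83 bases.

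The experiment mapped an eGFP-tagged transcription factor in whole L1 larvae of mixed sex, the first larval stage, of strain OP355, whose genotype is unc-119(tm4063) III with the integrated transgene wgIs355. Every larva in the experiment therefore carried the same mutation and transgene, and there was 1 group with 2 libraries, biological replicates 1 and 2, and no untreated or mutant group to set beside it. The labels disagree on the tagged gene: 1 field names ZK337.2 (klu-1) and others name mdl-1. The files are lists of regions, each with a signal of a scale that the sources used here do not give. They hold no read counts, so depth is unknown, and the authors' control was not analysed here. No test between conditions was possible, so counts, medians and the same values in each replicate are given as a description, with 95% intervals that cover counting error only.

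Dinucleotide GA repeats are common in animal genomes and are frequent in promoters and open chromatin. In flies, GAGA factor binds such repeats and helps to keep chromatin open. MDL-1, one of the proteins named by the labels, belongs to the Mad family, which recognises E-boxes in dimers with proteins of the Max type, while KLU-1, the other, is a zinc finger protein. Relaxed lists hold mostly weak regions by design, since they feed a comparison of replicates that then keeps the reproducible ones.

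The windows of the 5 strongest regions and of 3 regions with long runs are shown first. Short runs in strong regions can thus be set beside long runs in regions of far lower signal. The windows were picked for that contrast and do not stand for all 571, in which signal was nearly unrelated to run length. Each is the 101 bases of WBcel235 (ce11, RefSeq) centred on the summit, 5′ to 3′ on the strand on which the longest run reads as GA, named by the nearest gene, with capitals marking GA runs of 7 or more within the window. The first 5 had the highest signal, mtm-3 (chrIII:3801458-3801558, minus strand), tasp-1 and K01G5.10 (chrIII:10759202-10759302, plus strand), C09E9.1 (chrIV:1274701-1274801, minus strand), nhr-88 (chrII:2974015-2974115, plus strand) and zfp-3 (chrX:1446924-1447024, plus strand). The last 3 had long runs, Y50D4C.12 (chrV:979920-980020, minus strand), aakg-1 (chrIII:12549783-12549883, plus strand) and tbx-2 (chrIII:5131150-5131250, plus strand). Their pooled signals were 24.5, 25.2 and 16.6, beside a median of 21.4 over all 571, so only that of tbx-2 was below the median.
mtm-3: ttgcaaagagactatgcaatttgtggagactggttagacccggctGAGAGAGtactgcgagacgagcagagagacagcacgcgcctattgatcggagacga
tasp-1 and K01G5.10: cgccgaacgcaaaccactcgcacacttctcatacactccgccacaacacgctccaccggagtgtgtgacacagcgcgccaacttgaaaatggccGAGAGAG
C09E9.1: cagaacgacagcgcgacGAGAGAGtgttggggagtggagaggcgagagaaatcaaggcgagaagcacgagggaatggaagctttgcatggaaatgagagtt
nhr-88: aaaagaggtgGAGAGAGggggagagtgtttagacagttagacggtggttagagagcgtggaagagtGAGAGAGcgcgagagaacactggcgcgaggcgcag
zfp-3: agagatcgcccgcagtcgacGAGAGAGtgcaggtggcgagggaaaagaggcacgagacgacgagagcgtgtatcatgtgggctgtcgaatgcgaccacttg
Y50D4C.12: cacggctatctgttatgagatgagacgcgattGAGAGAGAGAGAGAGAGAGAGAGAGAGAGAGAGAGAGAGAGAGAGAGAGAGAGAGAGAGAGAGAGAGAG
aakg-1: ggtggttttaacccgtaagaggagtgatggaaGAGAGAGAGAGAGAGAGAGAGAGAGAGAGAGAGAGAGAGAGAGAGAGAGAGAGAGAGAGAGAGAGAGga
tbx-2: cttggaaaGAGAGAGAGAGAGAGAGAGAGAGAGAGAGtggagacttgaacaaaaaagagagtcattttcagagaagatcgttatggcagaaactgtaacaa

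The strongest GA-repeat region lay on chromosome III at 3801431 to 3801555, in intergenic sequence 1041 bp upstream of mtm-3, which encodes a myotubularin-type lipid phosphatase. It ranked 9 in the pooled list with a signal of 257.6, 9 in replicate 1 with 129.3, and 5 in replicate 2 with 135.8. The region of tasp-1, a predicted threonine aspartase, and of its neighbour K01G5.10 lay on chromosome III at 10759082 to 10759421, 55 bp upstream of the nearer 5′ end. It had a pooled signal of 221.9, with 97.1 in replicate 1 (rank 15) and 124.9 in replicate 2 (rank 9). Both regions were among the strongest of either library, and each held a single run of 7 bases in its window.

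The regions next in signal were those of C09E9.1, nhr-88 and zfp-3. At C09E9.1 (chromosome IV, 1274581 to 1274920) the summit lay 117 bp upstream of the gene, and the signal was 158.6 pooled, 73.3 in replicate 1 and 83.4 in replicate 2. At nhr-88, a nuclear hormone receptor gene (chromosome II, 2973895 to 2974234), the summit lay 2574 bp upstream, and the signal was 155.7 pooled, 73.7 in replicate 1 and 82.0 in replicate 2. These regions ranked 23 to 29 in both libraries. At zfp-3 (chromosome X, 1446804 to 1447143), the summit lay 331 bp upstream and the signal was 143.8 pooled, with 51.1 in replicate 1 (rank 59) and 92.0 in replicate 2 (rank 19). The strongest regions with a run longer than 7 bases were at F58D5.5, with a run of 11 and a signal of 135.9, and in an intron of daf-5 on chromosome II at 14040322 to 14040661, with a run of 11 of which 7 lay in the window and a signal of 105.1. DAF-5 is a Sno/Ski-type protein of the TGF-beta pathway that controls dauer formation.

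GA-repeat regions made up a larger share of the top of the pooled list than of the rest of it. The authors' thresholded list holds the pooled regions of highest signal, 0.863% of the relaxed list, and 34 of the 571 GA-repeat regions were in it (5.95%, 4.16 to 8.22). Of the other 29429 regions, 225 passed (0.765%, 0.668 to 0.871), so the share was 7.79 times as high with a repeat. The windows of GA-repeat regions were richer in G and C, and with the other regions weighted to the same GC content the ratio was 2.96. In each replicate's own list, as many strongest regions as the thresholded list holds were counted instead. With the same weighting the ratio was 1.99 in replicate 1's own list and 4.31 in that of replicate 2. Seen from the list, GA-repeat regions made up 13.1% (9.27 to 17.9) of the thresholded regions and 6.21% of the regions from there to rank 1000. They made up 2.25% of the next 4000 regions, 1.64% of the 5000 after these, and 1.61% and 1.58% of the following sets of 10000. The typical GA-repeat region was weak. The median signal was 21.4 (20.9 to 22.3), with quartiles of 18.4 and 27.9 and a range of 16.0002 to 257.6, beside a median of 20.3 for the other regions. Among regions that passed, the median signal was 70.9 with a repeat and 67.5 without, with intervals that overlapped (62.7 to 91.9 and 63.7 to 71.2).

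**Figure D1:**
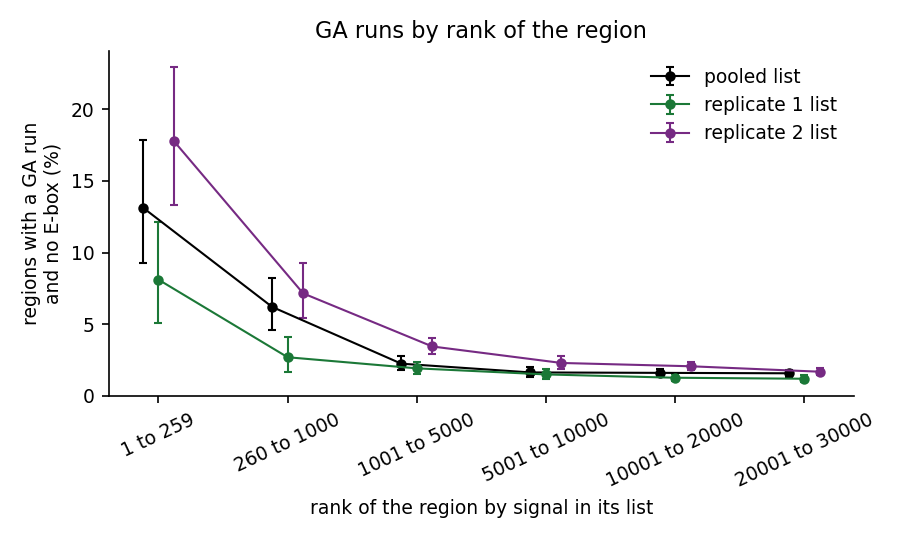
Percent of regions that held a GA repeat without the E-box (y axis) by rank bin of signal (x axis), for the pooled list and the relaxed list of each replicate, with 95% Clopper-Pearson intervals. In the first bin, of the same number of regions in each list, the share is 13.1% for pooled signal, 8.11% for replicate 1 and 17.8% for replicate 2, and each line is below 2% in the last bin.

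The same order was seen in each library, with a larger difference in replicate 2. A pooled region was matched to a replicate's region when their summits lay at most 200 bp apart. The strongest regions of replicate 1, as many as the thresholded list holds, matched 0.883% of all pooled regions and 25 GA-repeat regions (4.38%, 2.85 to 6.40), beside 0.816% of the others. The equal number from replicate 2 also matched 0.883% of all pooled regions, but 40 GA-repeat regions (7.01%, 5.05 to 9.42), beside 0.765% of the others. When the same sequence rule was applied to the summits of each replicate's own list, it found 440 regions in replicate 1, of which 21 (4.77%) were among as many strongest regions, and 728 regions in replicate 2, of which 46 (6.32%) were. The shares of regions without a repeat were 0.805% and 0.728%. GA-repeat regions of the pooled list had a match in replicate 1 in 331 cases (58.0%) and in replicate 2 in 396 (69.4%), whereas the other pooled regions matched replicate 1 more often (60.8%) than replicate 2 (53.6%). The windows of replicate 2 also had a higher GC content, with a median of 38.6% against 32.7% in replicate 1 in ranks from 10000 to 20000, and the part of base composition in the difference between libraries was not tested.

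Of the 34 GA-repeat regions that passed, 16 were among the strongest regions, counted in the same way, of both replicates, 3 of replicate 1 only, 13 of replicate 2 only and 2 of neither. A further 6 regions below the threshold were among the strongest of replicate 1, and 11 among those of replicate 2. A match within 200 bp need not be the same region: 1 of the 25 matches to the strongest of replicate 1 and 2 of the 40 to those of replicate 2 were shared with another pooled region, all of them regions below the threshold. With summits at most 50 bp apart, the shares of GA-repeat regions among the strongest were 3.33% in replicate 1 and 6.30% in replicate 2. For the 207 GA-repeat regions matched in both libraries, Spearman's rho between the signals of the replicates was 0.437, and for 7268 other regions it was 0.156. Without shared matches it was 0.451 (n = 195) and 0.151 (n = 6834). The points share both libraries and the pooled list that chose them. Single regions differed widely between libraries. The region between egl-30, which encodes the Gq alpha subunit, and C53H9.4 had a signal of 14.1 in replicate 1 (rank 10810) and 42.9 in replicate 2 (rank 97), with the highest GC content of any GA-repeat window, 68.3%. The region at ugt-65, which encodes a UDP-glucuronosyltransferase, ranked 234 in replicate 1 with a signal of 28.6 and had no match in replicate 2. An intergenic region 4745 bp past the 5′ end of mdl-1, beyond the gene's end, was also among the strongest of replicate 2. It had a signal of 40.05 there and no match in replicate 1. With a pooled signal of 49.0 (rank 270), it stayed just below the threshold. It was the 1 GA-repeat region within 50 kb of mdl-1. Regions nearest to R06C1.4 (33.5 pooled, 31.1 in replicate 2) and pan-1 (38.0 pooled, 29.1 in replicate 2) likewise had no match in replicate 1. The region nearest to din-1, a corepressor gene of the DAF-12 receptor, had 34.45 in replicate 2, above its pooled signal of 21.2, and no match in replicate 1.

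**Figure D2:**
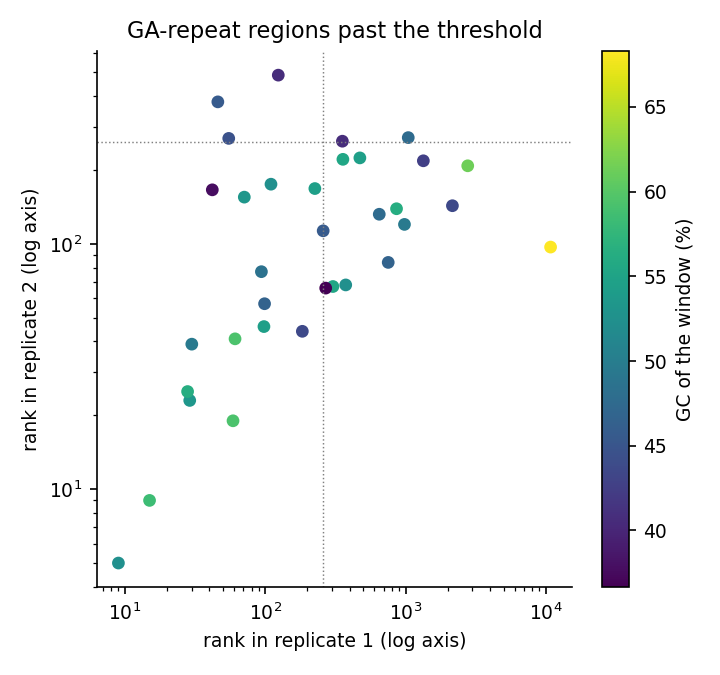
Rank of each GA-repeat region in replicate 1 (x axis) and replicate 2 (y axis), both on log scales, for the 34 that passed the authors' threshold, with colour for the GC content of the window in percent. Dotted lines bound as many strongest regions of each replicate as the thresholded list holds, and 16 points lie inside both lines.

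Signal was nearly unrelated to the length of the run. Across the 571 regions, Spearman's rho between the longest run and pooled signal was 0.07, and across matched regions it was -0.01 with the signal of replicate 1 (n = 331) and 0.11 with that of replicate 2 (n = 396). The points share libraries and differ in GC content, which itself had a rho of 0.11 with run length. The median signal was 21.1 (20.4 to 21.9) for runs of 7 bases, 22.3 (20.8 to 26.01) for 9 to 11, 21.96 (20.9 to 23.8) for 13 to 19 and 23.3 (16.6 to 33.2) for 21 or more. The shares that passed were 22 of 395 (5.57%), 8 of 113 (7.08%), 3 of 53 (5.66%) and 1 of 10 (interval 0.253% to 44.5%), and their intervals overlapped. When each run was extended with up to 2 mismatches on either side, its median length was 13 bases over all 571 regions and 13.5 bases in those that passed, and rho with signal was 0.10.

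Of the 10 regions with the longest runs, 1 passed the threshold. The longest, 83 bases near Y50D4C.12 of which part lay outside the window, had a pooled signal of 24.5. It had 11.6 in replicate 1 (rank 20905) and 11.9 in replicate 2 (rank 11523). The run of 77 bases near sad-1, which encodes a kinase of presynaptic assembly, was centred 73 bp from the summit and lay mostly outside the window. Its region had a signal of 16.2 and no match in either replicate. The run of 67 bases near aakg-1, a gamma subunit gene of AMP-activated protein kinase, had a signal of 25.2, and 18.6 in replicate 2 (rank 1543). Runs of 45 bases near ari-2, an ariadne ubiquitin ligase gene, and of 39 bases near mrpl-15, which encodes a mitochondrial ribosomal protein, had signals of 33.2 and 29.7. Runs of 25 bases near siah-1, a ubiquitin ligase gene, and of 21 bases near fbxa-83, an F-box gene, had signals of 21.9 and 21.2 and no match in replicate 1. The 1 region with a run over 20 bases that passed was nearest to toe-4, with 29 bases and a signal of 64.01, while another run of 29 bases near tbx-2, a T-box factor gene, had a signal of 16.6. These 2 regions had runs of equal length at nearly opposite ends of the list.

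**Figure D3:**
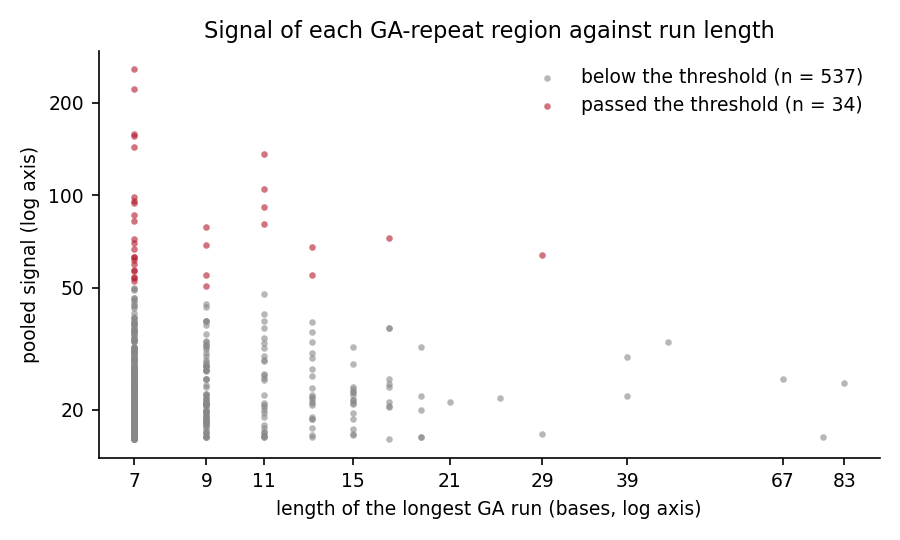
Pooled signal (y axis, log scale) against the longest GA run in bases (x axis, log scale) for the 571 regions, with 1 point a region and those past the authors' threshold in red. Low and high signals are found at most lengths, and the region of highest signal, 257.6, has a run of 7 bases.

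Most GA repeats of the genome had no region near them. The WBcel235 assembly holds 14863 runs of 7 or more, the longest of 191 bases, and a relaxed summit lay within 50 bp of 654 of them (4.40%, 4.08 to 4.74). The windows of the 30000 summits cover at most 3.02% of the genome. A thresholded summit lay within 50 bp of 51 runs (0.343%). By length, the share with a relaxed summit was 4.12% for runs of 7, 5.10% for 9 to 11, 5.58% for 13 to 19 and 5.31% for 21 or more, with overlapping intervals. Within 100 bp the share was lower for runs of 7, at 8.19% (7.69 to 8.71), than for 9 to 11, at 10.2% (8.98 to 11.4), or 13 to 19, at 11.2% (9.30 to 13.3), and these intervals did not overlap that of runs of 7. In the replicates' own lists, the share over all runs was 3.29% in replicate 1 and 5.66% in replicate 2, and for runs of 21 or more it was 5.71% (3.16 to 9.40) and 9.39% (6.04 to 13.8). For runs of 7 it was 3.09% (2.78 to 3.43) and 5.38% (4.97 to 5.82), so in replicate 2 the intervals of the shortest and the longest class did not overlap. A summit was counted when any 7 bases of the run lay within the distance, so longer runs offered more positions. Part of a rise with length, at either distance, is therefore built into this measure. Most repeats of every length thus had no summit near them.

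GC content moved with both the repeat and the signal. The median GC content of the 101-base window was 43.6% in GA-repeat regions and 35.6% in the others. It was 50.99% in the GA-repeat regions that passed, 42.6% in those that did not and 49.5% in the other regions that passed. Spearman's rho between GC content and signal was 0.25 over GA-repeat regions and 0.09 over the others. Weighting the other regions to the GC content of the GA-repeat regions, in bins of 2 percentage points, raised the share of them that passed from 0.765% to 2.01%, which gave the weighted ratio of the pooled list above. In a least squares fit of log2 signal over all 30000 regions with GC content, its square, the E-box and promoter location as terms, the repeat had a coefficient of 0.18 for pooled signal and 0.23 without the GC terms. The repeat here marked every region with a GA run, which in the pooled list were 604, including the 33 with the E-box. Fitted to each library's own list, the coefficient was 0.15 for replicate 1 and 0.215 for replicate 2.

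In each class of GC content, regions with a GA repeat passed more often than regions with neither a GA or CA repeat nor the E-box. From 40% GC upward so did regions with a CA repeat, although from 40 to 50% the intervals overlapped. Where GC content was under 40%, 2 of 201 GA-repeat regions passed (0.995%, 0.121 to 3.55), beside 0.0558% with none of these sequences. In that class, 0 of 145 regions with CACACAC and no GA run passed, and 2 of 272 with the E-box and no GA run (0.735%). From 40 to 50%, 15 of 264 GA-repeat regions passed (5.68%, 3.21 to 9.20), beside 0.971% (0.757 to 1.23) with none of these. With CACACAC and no GA run, 5 of 174 passed (2.87%, 0.939 to 6.58), and with the E-box and no GA run 25 of 329 (7.60%, 4.98 to 11.01). At 50% or more, 17 of 106 passed (16.04%, 9.63 to 24.4), beside 4.28% of regions with none of these sequences. In that last class, 12 of 68 regions with CACACAC and no GA run passed (17.6%, 9.47 to 28.8), and 27 of 114 with the E-box and no GA run (23.7%, 16.2 to 32.6). The shares for GA repeats, CA repeats and E-boxes in GC-rich windows therefore had overlapping intervals. In the same class, the shares among the strongest regions of replicate 1 were 10.4% for GA repeats, 11.8% for CA repeats and 3.12% for none of these, and in replicate 2 they were 18.9%, 20.6% and 4.55%.

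**Figure D4:**
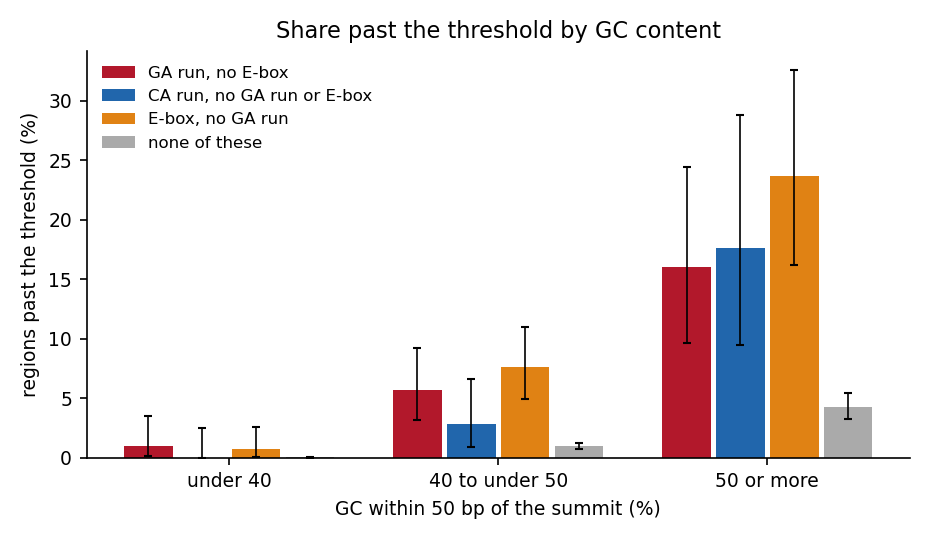
Percent of regions past the authors' threshold (y axis) by class of GC content of the 101-base window (x axis), for regions with a GA run, with CACACAC but no GA run, with the E-box but no GA run, and with none, with 95% Clopper-Pearson intervals. In windows of 50% GC or more, the shares are 16.04%, 17.6%, 23.7% and 4.28%.

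Over all GC contents, the shares of CA-repeat and GA-repeat regions that passed had overlapping intervals, and smaller shares of regions with runs of A, of G or of alternating A and T passed, although the interval for G reached into that for GA. The 421 regions with CACACAC and no E-box had a median GC content of 43.6%, the same as the GA-repeat regions, a median signal of 21.8, and 21 of them passed (4.99%, 3.11 to 7.52). Only 34 regions held both repeats, so 387 of the CA-repeat regions were not GA-repeat regions, and 17 of these passed (4.39%). By contrast, 2 of 511 regions with ATATATA passed (0.391%), 14 of 6206 with 7 A in a row (0.226%) and 1 of 101 with 7 G in a row (0.990%, 0.0251 to 5.39). Median GC content was 30.7% with ATATATA and with the run of A, but 46.5% with the run of G, above that of GA-repeat regions. The shorter run GAGAG without a run of 7 was found in 3655 regions, of which 80 passed (2.19%, 1.74 to 2.72). The E-box alone was found in 715, of which 54 passed (7.55%, 5.72 to 9.74). The 33 regions with both a GA run and the E-box, which are not counted among the 571, had a median signal of 41.3, and 11 of them passed (33.3%, 17.96 to 51.8).

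Runs were denser near the summits than away from them, by far more in strong regions than in weak ones. The median distance from the summit to the centre of the longest run was 18 bp in the GA-repeat regions that passed and 23 bp in the others, both within the 50 bp that the rule set, and rho between distance and signal was -0.03. Distances beyond the window were not set by the rule. Over all regions without the E-box, the 194 that passed had 129 runs per 1000 regions in the 50 bp upstream of the summit (25 runs). They had 77.3 in the 50 bp downstream (15 runs) and 134 from 50 to 100 bp downstream (26 runs). From 350 to 400 bp upstream they had 36.1 (7 runs). From 450 to 500 bp they had 0 upstream and 25.8 downstream (5 runs), so single bins rest on few runs. The 672 regions from there to rank 1000 had 41.7 and 34.2 on either side of the summit and 4.5 at 450 to 500 bp downstream, while the 28386 weaker regions had 9.4 and 9.9 on either side of the summit, and 6.8 upstream and 7.3 downstream at 450 to 500 bp. Upstream and downstream here follow the genome's plus strand. The groups were not matched for GC content. The excess near strong summits thus reached beyond the 50 bp of the rule.

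**Figure D5:**
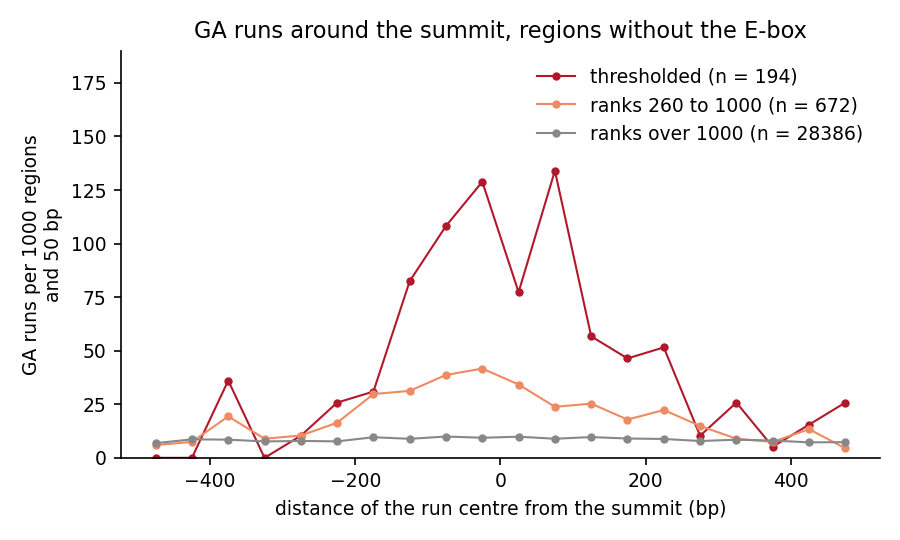
Number of GA runs of 7 or more per 1000 regions (y axis) in bins of 50 bp by distance of the run's centre from the summit in bp (x axis), for regions without the E-box that passed the threshold, those below it to rank 1000, and the rest. Regions that passed reach 134 runs per 1000 regions, and the rest have 9.4 and 9.9 in the bins next to the summit.

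The bases next to the run differed between GA-repeat regions that passed and those that did not. This was looked for after the windows had been read, and the hexamers named here overlap the run and each other. Reading on the GA strand, the base 5′ of the run was C in 17 of the 34 that passed (interval 32.4% to 67.6%), in 108 of the other 537 (20.1%) and in 18.5% of all runs in the genome. GC content moved with this: where it was 50% or more, the base was C in 12 of 17 that passed (70.6%) and 27 of 89 that did not (30.3%), and below 50% it was C in 5 of 17 (29.4%) and 81 of 448 (18.1%). On either strand of the window, CGAGAG stood in 20 of the 34 (58.8%, 40.7 to 75.4) and in 24.95% of the other GA-repeat regions. CGAGAC stood in 9 of the 34 (26.5%, 12.9 to 44.4) and in 3.54% of the others. It can be seen in the windows of mtm-3 and zfp-3 above. The same hexamers were also found outside GA-repeat regions. Among regions with neither a GA run nor the E-box, CGAGAC stood in 10.6% of the 160 that passed and in 2.68% of the rest. For CGAGAG these shares were 16.25% and 2.64%. The sequence CGTCTC, which reads GAGACG on the other strand, stood in 85 of the 571 windows. Of these 85 regions 12.9% passed, beside 23 of the 486 without it (4.73%, 3.02 to 7.02).

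GA-repeat regions lay in coding sequence less often than other relaxed regions and in intergenic sequence more often. Their summits were intergenic in 266 cases (46.6%, 42.4 to 50.8), beside 34.1% of the others. They were in introns in 28.02% against 31.7%, in coding exons in 57 cases (9.98%, 7.65 to 12.7) against 24.7%, in 5′ UTRs in 3.33% against 1.65%, and in non-coding genes in 6.48% against 2.36%. Signal was lowest in coding exons, with a median of 18.9 and a highest value of 39.8, so none of those 57 passed, beside 5 of 7255 other regions in coding exons. The 34 regions that passed were made up of 20 intergenic regions, 8 in introns, 3 in 5′ UTRs and 3 in non-coding genes. The 4 GA-repeat regions within 100 bp of a small RNA gene (0.701%, beside 0.873% of the others) were all at tRNA genes, and none passed. They were those of col-85 (39.8), C18H7.1 (30.7), C44B7.11 and hrpl-1 (23.5), and wdr-83 (21.96). Of the 257 other regions near a small RNA gene, 14 passed (5.45%), and 0 of 4 (interval 0 to 60.2%) is too few to compare with this.

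Promoter location did not separate GA-repeat regions from the rest. Promoter windows, which span 1000 bp before and 500 bp after the 5′ ends of protein-coding genes, held 175 of them (30.6%, 26.9 to 34.6), beside 28.96% of the others. Of those in a promoter window 6.29% passed (3.18 to 10.97), and of those outside 5.81% (3.72 to 8.59). The other relaxed regions passed in 1.26% of cases inside promoter windows and in 0.564% outside. Among regions that passed, 11 of 34 with a repeat were in a promoter window (32.4%, 17.4 to 50.5), beside 47.6% (40.9 to 54.3) of those without. The run read GA on the coding strand in 66 of the 175 promoter regions (37.7%, 30.5 to 45.3), close to the 36.5% of all 4295 runs in promoter windows of the genome.

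By chromosome, 89 GA-repeat regions were on X (15.6%, 12.7 to 18.8), beside 20.2% of the others. In the list of replicate 2 the shares were equal, at 19.8% for both, and in that of replicate 1 they were 17.95% and 20.3%. Chromosome III held 18.4% of GA-repeat regions and 13.9% of the others, and chromosome V 15.6% and 19.9%. Of the 34 that passed, 8 were on chromosome III, 7 on IV, 6 each on I and X, 5 on II and 2 on V. The X chromosome held 17.6% (6.76 to 34.5) of the GA-repeat regions that passed and 30.7% (24.7 to 37.1) of the other regions that passed.

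Although no regions shared a repeat or had summits within 200 bp of each other, 92 of the 571 had another within 10 kb. The same count was not made for other relaxed regions, so it was not read as clustering. Of the 34 that passed, 9 had such a neighbour. In most of these the neighbour was weak. The mtm-3 region with a signal of 257.6 had another GA-repeat region 2084 bp away with a signal of 22.1, whose run was far longer at 39 bases, and the nhr-1 region with 63.0 had one 969 bp away with 16.2. The exception was zfp-1, which encodes a PHD finger protein related to mammalian AF10. In intronic sequence of this gene on chromosome III (gene at 8791535 to 8806305, plus strand), 3 GA-repeat regions passed, with summits at 8797549, 8800143 and 8802172, so 2594 and 2029 bp apart. Their signals were 54.95, 80.3 and 94.3, and their runs 13, 11 and 7 bases. The libraries ranked them differently. The middle region was rank 55 in replicate 1 and 269 in replicate 2, the third was 184 and 44, and the first was 2159 and 143.

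The other regions that passed are named here by promoter window or, outside one, by the closest 5′ end, with their pooled signal. A nearest gene need not be linked to the region, and no theme was tested over these genes. In promoter windows, the region of cnnm-2 and R04E5.9 had a signal of 86.4, that of tag-340 and nhl-2 66.9, and that of nhr-1, a nuclear hormone receptor gene, 63.0. The regions of egl-30 (59.6), sms-2 (57.0), a sphingomyelin synthase gene, F47D12.9 (56.8) and ccb-1 (55.0), a calcium channel beta subunit gene, were also in promoter windows. Inside a gene, a region in a 5′ UTR of srh-2, a chemoreceptor-type gene, had 98.9, with 38.5 in replicate 1 and 58.2 in replicate 2. Intronic regions of Y105C5A.15 (91.9), sma-9 (69.0), which encodes a Schnurri-type factor of the BMP-like pathway, and hlh-30 (53.98), the worm TFEB gene, were outside promoter windows. The sma-9 region had the lowest GC content among those that passed, 36.6%, and the hlh-30 region ranked 2776 in replicate 1 and 208 in replicate 2.

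Farther from 5′ ends, the region nearest to nfki-1, which encodes an IκB-related protein of interleukin-17 signalling, lay in the non-coding gene Y15E3A.13. Its signal was 95.8 pooled, 61.3 in replicate 1 and 34.9 in replicate 2, so here replicate 1 was the higher. Upstream regions were nearest to cpt-1 (79.1, 2521 bp), a carnitine palmitoyltransferase gene, chd-7 (72.6, 2822 bp), a chromodomain helicase gene, and tax-6 (72.1, 2427 bp), the calcineurin A gene. The tax-6 region ranked 753 in replicate 1 and 84 in replicate 2. Others lay upstream of bet-1 (67.9, 1251 bp), a double bromodomain gene, hyl-1 (61.6, 3847 bp, in an intron of pkg-2), a ceramide synthase gene, fos-1 (53.6, 3096 bp), a Fos-type leucine zipper gene, and ubc-8 (52.4, 1528 bp), a ubiquitin-conjugating enzyme gene. The chd-7 and bet-1 regions had runs of 17 and 13 bases. The regions nearest to F43C1.7 (82.5), srw-60 (69.6), a chemoreceptor-type gene, and Y110A2AR.1 (62.7) were intergenic, on the downstream side of the closest 5′ end.

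Gene lists of pathways gave small counts. Of 8533 protein-coding genes with any relaxed region in their promoter window, 213 (2.50%) had a GA-repeat region. Any region that passed was found at 144 of the 8533 genes, and a GA-repeat region that passed at 15. Of 128 such nuclear hormone receptor genes, 6 had a GA-repeat region, 3 had any region that passed, and 1, nhr-1, had a GA-repeat region that passed. The others of highest signal were nhr-119 (30.6), nhr-71 (28.1) and nhr-116 (22.1). Of 30 chaperone genes, 1 had a GA-repeat region, hsp-1, the constitutive Hsp70 gene, which passed with a signal of 50.5 and replicate ranks of 1046 and 271. Any region that passed was found at 2 of the 30. Of 65 collagen genes 3 had one, col-85 (39.8), col-174 (19.7) and col-61 (16.03). The 50 cytosolic ribosomal protein genes had 1 region shared by rpl-41.1 and rpl-41.2 (24.2), the 39 homeobox genes had 1 at ceh-100 (26.9), and the 15 muscle genes had 1 at myo-1 (20.7), a pharyngeal myosin gene. None of these 3 passed, while 7 ribosomal protein genes, 1 homeobox gene and 0 muscle genes had any region that passed. There was no GA-repeat region at 19 translation factor, 15 proteasome, 10 neuronal, 9 histone, 7 Ras pathway, 7 chromatin, 6 heterochronic, 5 dosage compensation, 5 insulin pathway or 4 Myc network genes with a relaxed region. At 2.50% per gene, lists of this size give few or no genes, so nothing was read from these zeros.

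The authors' threshold cut through a continuous range of signal. The weakest GA-repeat regions inside it were those of hsp-1 (50.5), ubc-8 (52.4), fos-1 (53.6) and hlh-30 (53.98). The strongest outside it were dgk-1 (49.7, rank 260), a diacylglycerol kinase gene, the region of apb-1 and mdt-19 (49.5), mdl-1 (49.0), wdfy-3 (47.7) and taf-3 (46.4). Counting the strongest 1000 regions instead, 80 of 571 GA-repeat regions were included (14.01%, 11.3 to 17.1) and 3.13% of the others, a ratio of 4.48.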

How the data were processed

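The authors' readme files state that regions came from alignments of the libraries and a control, and that the thresholded list drew on the pooled and the replicate lists. The signal of each region is the authors' deposited value, but the sources used here give neither its scale nor the aligner, the caller and the threshold. Lists on ce11 were used, each relaxed list with 30000 regions, and lists on ce10 were not used. Median signals were 20.3 (pooled), 12.9 (replicate 1) and 11.01 (replicate 2). Depth is unknown, so differences in depth between the libraries cannot be separated from differences in signal.

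Sequences came from the RefSeq WBcel235 genome and genes from Ensembl release 115 (19973 protein-coding genes). Python 3.11.15 with numpy 2.4.6, pandas 2.3.3 and scipy 1.17.1 was used. Intervals are 95% Clopper-Pearson for shares and order-statistic for medians. Regions are not replicates, so no test was made. Steps were tested on simulated data. Genes were named for the 25 members of highest signal, the 10 longest runs, the 5 members on either side of the threshold, the 5 regions most unequal between replicates, and up to 4 per gene list. The other regions that passed, the daf-5 and zfp-1 host positions and the hexamers were added after their values were seen. The members, the gene lists and the alternatives were chosen with earlier results of these data known.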

Additional observations from a re-analysis of the deposited data

How the results depend on the processing

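Alternatives without 1 replicate used the other replicate's own list and summits. In those, as many of its strongest regions as the thresholded list holds were counted as passing. The share of GA-repeat regions that passed stayed above that of the others in all 17 alternatives, with ratios from 1.989 to 10.23 around the 7.79 reported. It was 2.955 with GC weighting and 4.482 over the strongest 1000 regions, 8.684 without replicate 1 and 5.928 without replicate 2, and, in alternatives added after seeing the data, 4.306 without replicate 1 and 1.989 without replicate 2 under GC weighting. Over the strongest 1000, the ratio was 2.147 in replicate 1 and 5.218 in replicate 2. The ratio of median signals was 1.052, and 1.113 and 1.069 without replicates 1 and 2. The rank correlation of run length and signal changed sign to -0.01382 for runs of 9 or more, was 0.1344 with a window of 100 bp either side and 0.1114 without chromosome X, and was 0.0782 and 0.05072 without replicates 1 and 2. The promoter ratio of 1.058 turned to 0.9412 with a window of 25 bp and to 0.9944 without chromosome X. The X ratio of 0.7713 was 0.9995 without replicate 1 and 0.8866 without replicate 2. Genomic runs with a summit went from 4.40% to 8.747% within 100 bp, and were 5.658% and 3.29% without replicates 1 and 2. The cause of these shifts was not tested. The adjusted coefficient kept its sign in 4 of 4 alternatives. GC weighting gives no value for this correlation, and ce10 was not run. No paired analysis was possible because there was 1 group. Unknown depth limits the ranks of weak regions.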
